A study of Homo sapiens with 24 samples.

Results

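The transcripts of 10 immediate early genes, the AP-1 genes FOS, FOSB, FOSL1, FOSL2, JUN, JUNB and JUND and the EGR genes EGR1, EGR2 and EGR3, were followed across 24 RNA-seq libraries of U87-T glioblastoma cells. The 10 genes were taken by symbol out of 57736 in the deposited count table. The DAXX series held WT and DAXX_KO cells and the ATRX series held WT and ATRX_KO cells, each left untreated (control) or given etoposide, an inhibitor of topoisomerase II that leaves DNA double-strand breaks, with 3 libraries in each of the 8 groups. U87-T cells are U87 cells transduced with a telomerase construct (pBabe-Lox-TERT-Lox), and each KO line is 1 CRISPR clone with features like those of alternative lengthening of telomeres (ALT), so gene loss, clone and ALT-like features cannot be told apart. The dose and time of etoposide for these libraries are not given in the sources used here. For the DAXX_KO libraries the titles and the genotype field disagree on the gene, and the titles were followed.

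AP-1 is a dimer of basic leucine zipper proteins: FOS family proteins pair with JUN family proteins, whereas JUN family proteins also pair with each other, and the dimer binds the palindrome TGACTCA. EGR proteins are zinc finger factors that bind GC-rich sites such as GCGTGGGCG. Growth factors, MAP kinase signalling and stress, DNA damage included, switch on many of these genes within minutes through serum response factor at CArG boxes and through CREB and ATF factors, and most of the transcripts decay fast. FOSL1 is a late member of the FOS group that is held high by sustained ERK signalling and is known for its part in the mesenchymal state of glioblastoma.

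Libraries held 6928950 to 13298557 counts, and 3 counts corresponded to 0.215 to 0.407 CPM, a count's share of the library scaled by the trimmed mean of M values (TMM). The targeted gene was lower in each KO line, DAXX at 5.93 ± 1.08 CPM in DAXX_KO against 34.5 ± 1.27 CPM in WT control cells, and ATRX at 79.4 ± 5.74 CPM in ATRX_KO against 189.7 ± 5.08 CPM (SD, n = 3). Of the glioma and mesenchymal markers, VIM (1203 to 6092 CPM), CD44 and NES were above 3 counts in all 24 libraries, SOX2 in 13 and OLIG2 in 14, whereas GFAP passed 3 counts in 1. Of the markers of other cells, the leukocyte gene CD68 was at 17.5 to 40.7 CPM. In these bulk libraries its source was not tested. PTPRC, EPCAM and RBFOX3 stayed below 3 CPM, as did OLIG2, while SOX2 reached 4.53 CPM. PTPRC and EPCAM passed 3 counts in 16 libraries each and RBFOX3 in 23, more libraries than SOX2 or OLIG2. These low-level genes therefore do not mark the cell type here. The endothelial gene PECAM1 was not found by symbol. The short RNA BCYRN1 took 3.08% to 12.1% of the counts of a library and was higher with etoposide in each genotype, which moves with the drug response described below; its part in the results was not tested. The study's reporting summary calls its experiments biological duplicates or triplicates. It does not say whether the 3 libraries of a group come from separate cultures, so p-values measure only the spread between these libraries.

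To show the sequence in front of 4 members on which the results below turn, the 250 bases upstream of the start were read from RefSeq (GRCh38.p14) for EGR1, EGR2, JUN and JUND. Of the 10 genes, 8 had an entry, those without one being FOSL1 and EGR3. Motifs were searched on both strands in windows from 250 bases before to 50 after the start and stand in capitals: the CArG box, which binds serum response factor, in EGR1 and EGR2, TGACATCA in JUN and TGACGTCA in JUND, both of the kind bound by AP-1 or CREB and ATF dimers.
EGR1, chr5:138465229-138465478 on the plus strand: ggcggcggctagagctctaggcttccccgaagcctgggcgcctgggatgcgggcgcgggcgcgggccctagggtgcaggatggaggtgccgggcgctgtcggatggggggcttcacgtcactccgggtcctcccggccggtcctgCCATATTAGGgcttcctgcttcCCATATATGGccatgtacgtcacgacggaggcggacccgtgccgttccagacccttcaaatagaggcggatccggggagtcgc
EGR2, start 3 of the 3 listed, chr10:62816367-62816616 on the minus strand: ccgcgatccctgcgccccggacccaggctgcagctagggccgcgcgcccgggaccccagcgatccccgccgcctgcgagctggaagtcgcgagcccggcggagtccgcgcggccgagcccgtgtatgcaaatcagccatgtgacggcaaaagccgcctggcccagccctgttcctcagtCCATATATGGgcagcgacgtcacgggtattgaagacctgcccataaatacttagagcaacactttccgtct
JUN, chr1:58784048-58784297 on the minus strand: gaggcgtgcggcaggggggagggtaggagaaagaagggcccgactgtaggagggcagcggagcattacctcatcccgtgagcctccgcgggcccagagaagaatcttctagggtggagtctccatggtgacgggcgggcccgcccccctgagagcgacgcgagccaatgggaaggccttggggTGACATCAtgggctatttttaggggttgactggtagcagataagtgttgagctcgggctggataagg
JUND, chr19:18281623-18281872 on the minus strand: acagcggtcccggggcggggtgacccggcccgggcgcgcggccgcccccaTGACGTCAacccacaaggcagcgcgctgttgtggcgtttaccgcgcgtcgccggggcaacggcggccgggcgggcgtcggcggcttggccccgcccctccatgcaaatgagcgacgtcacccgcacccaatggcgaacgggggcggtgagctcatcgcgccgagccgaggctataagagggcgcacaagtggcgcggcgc
The CArG boxes began 105 and 83 bases before the start of EGR1 and 71 bases before start 3 of EGR2. Such a box was held by 1.29% of the 35116 windows searched. The windows at starts 1 and 2 of EGR2 held none of the motifs, and which start these cells use was not tested. TGACATCA began 67 bases before the JUN start (2.61% of windows) and TGACGTCA 200 bases before the JUND start (1.85%). The AP-1 palindrome TGACTCA (4.95% of windows) was found among the members only in FOSL2, 5 bases after its start, and GCGTGGGCG (0.795%) was found in none of the 8. A match in these windows is a description of the letters and was not tied to the levels that follow.

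**Figure D1:**
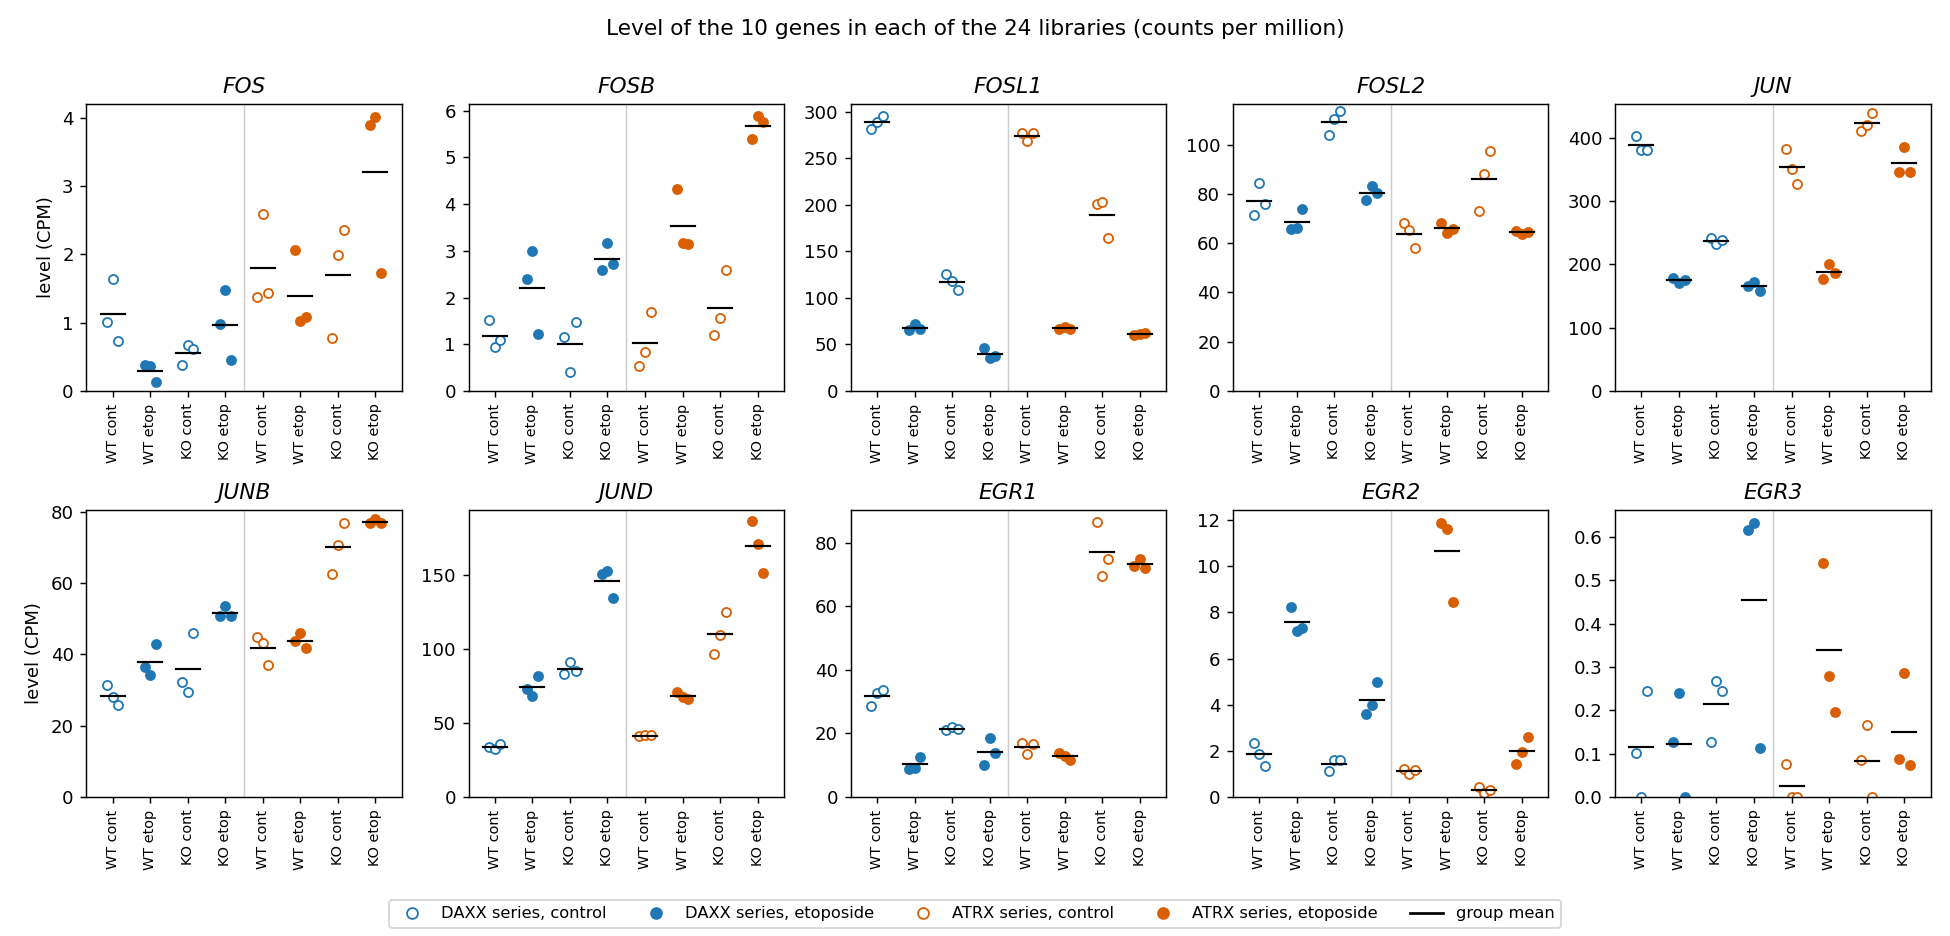
Level of each of the 10 genes (CPM, linear axis from 0) in the 24 libraries, with 1 point per library, open for control and filled for etoposide, and a line at the mean of each group of 3. FOSL1 sits near 280 CPM in WT control cells of both series and near 68 CPM with etoposide, while EGR1 is at 69.5 CPM or more in the 6 ATRX_KO libraries and at 33.5 CPM or less in the other 18.

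FOSL1 (ENSG00000175592, chr11:65659520-65668044, minus strand, positions on GRCh37 here and below) and FOSL2 (ENSG00000075426, chr2:28615315-28640184, plus strand) made up nearly all FOS family transcript. QuantSeq reads start at the 3′ end of a transcript, about 1 per molecule, so CPM of different genes were compared without division by length. FOSL1 read 281, 288 and 295 CPM in the 3 WT control libraries of the DAXX series and 65.5, 71.4 and 66.7 CPM with etoposide. DAXX_KO cells read 126, 118 and 109 CPM in control and 45.8, 35.6 and 37.6 CPM with etoposide. None of these 4 groups overlapped, with control WT cells highest and etoposide-treated DAXX_KO cells lowest. ATRX series WT cells read 277, 268 and 277 CPM in control and 66.7, 68.7 and 67.0 CPM with etoposide. ATRX_KO cells read 200.4, 203 and 164 CPM in control and 59.6, 61.2 and 62.0 CPM with etoposide. These 4 groups did not overlap either. The log2 difference between the WT control levels of the 2 series was 0.07 ± 0.08 (± SE here and below; edgeR adjusted p = 0.602).

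FOSL1 fell with etoposide in each genotype, by 4.20-fold in WT cells of the DAXX series (log2 fold change -2.07 ± 0.08, edgeR adjusted p = 6.58e-14) and 3.999-fold in those of the ATRX series (edgeR adjusted p = 2.49e-12). The change was -1.56 ± 0.09 on the log2 scale in DAXX_KO (edgeR adjusted p = 1.75e-11) and -1.65 ± 0.08 in ATRX_KO (edgeR adjusted p = 5.26e-11). In control cells FOSL1 was already lower in the KO lines, 2.46-fold in DAXX_KO (-1.30 ± 0.08, edgeR adjusted p = 9.57e-11) and 1.44-fold in ATRX_KO (-0.53 ± 0.08, edgeR adjusted p = 3.39e-05). With etoposide it was lower in DAXX_KO than in WT (-0.79 ± 0.09, edgeR adjusted p = 5.25e-07), while in ATRX_KO the difference was -0.17 ± 0.08 (edgeR adjusted p = 0.0938). The response was smaller in DAXX_KO than in WT by 0.51 ± 0.12 (KO minus WT, edgeR adjusted p = 0.00707). In ATRX_KO the same difference was 0.35 ± 0.11 (edgeR adjusted p = 0.0421), a call that was lost when any 1 of 9 of the 12 libraries was left out (adjusted p up to 0.0905).

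FOSL2, which encodes a FOS protein lacking the transactivation domain found in FOS, read 71.5, 84.5 and 75.8 CPM in DAXX series WT control and 65.9, 66.3 and 73.7 CPM in WT with etoposide. DAXX_KO libraries read 104, 110.2 and 114 CPM in control and 77.4, 83.2 and 80.2 CPM with etoposide, all above the WT libraries of the same treatment. ATRX series WT cells read 68.1, 65.3 and 58.0 CPM in control and 68.3, 64.2 and 65.8 CPM with etoposide. ATRX_KO cells read 72.9, 88.0 and 97.2 CPM in control and 64.9, 63.5 and 64.6 CPM with etoposide. Here the KO libraries lay above the WT libraries in control, and the groups overlapped with etoposide. FOSL2 was higher in DAXX_KO than in WT control cells (0.50 ± 0.08, edgeR adjusted p = 2.01e-05) and in ATRX_KO (0.44 ± 0.09, edgeR adjusted p = 0.00139). It fell with etoposide in DAXX_KO (-0.44 ± 0.08, edgeR adjusted p = 8.59e-05) and ATRX_KO (-0.43 ± 0.09, edgeR adjusted p = 0.00119). The WT changes were -0.16 ± 0.08 (edgeR adjusted p = 0.102) and 0.07 ± 0.10 (edgeR adjusted p = 0.528). The KO minus WT response was -0.50 ± 0.14 in the ATRX series (edgeR adjusted p = 0.0185; 0.0577 without WT control library 3 and 0.0607 without WT etoposide library 1). It was -0.28 ± 0.11 in the DAXX series (edgeR adjusted p = 0.102). The higher level in etoposide-treated DAXX_KO cells (0.22 ± 0.08, edgeR adjusted p = 0.0262) missed the threshold in DESeq2 (adjusted p = 0.0538). Less the median of the 30 tested genes on each side, the DAXX_KO differences were 0.88 in control and 0.46 with etoposide. FOSL2 overlaps FOSL2-AS1 on the other strand and a shorter gene on its own strand, and the strand setting of the counting is not given in the sources used here, so its reads could not be told from those of FOSL2-AS1.

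FOS (ENSG00000170345, chr14:75745529-75748933, plus strand) and FOSB (ENSG00000125740, chr19:45971253-45978437, plus strand), the classic rapid-response members, were near the limit of detection. FOS held 1 to 56 counts per library (0.136 to 4.01 CPM) and did not pass the filter on low counts in the DAXX series. FOSB held 3 to 82 counts (0.403 to 5.88 CPM). In WT cells of the ATRX series FOSB read 0.538, 0.837 and 1.68 CPM in control and 4.32, 3.16 and 3.14 CPM with etoposide. In ATRX_KO it read 1.196, 1.57 and 2.59 CPM in control and 5.39, 5.88 and 5.76 CPM with etoposide, and neither genotype's groups overlapped. FOSB rose with etoposide in ATRX series WT cells (1.82 ± 0.36, edgeR adjusted p = 0.000327), in ATRX_KO (1.65 ± 0.32, edgeR adjusted p = 0.000386) and in DAXX_KO (1.47 ± 0.42, edgeR adjusted p = 0.00624). In DAXX series WT cells its change was 0.90 ± 0.42 (edgeR adjusted p = 0.0705), reaching 0.0257 without WT etoposide library 3. FOS read 2.07, 1.02 and 1.08 CPM in WT and 3.89, 4.01 and 1.72 CPM in ATRX_KO with etoposide, groups that overlapped, and was higher in ATRX_KO (1.16 ± 0.44, edgeR adjusted p = 0.0403; DESeq2 adjusted p = 0.0560), a call lost when any 1 of 4 libraries was left out (edgeR adjusted p up to 0.150). Between replicates the CPM of FOS varied by 42.7% and that of FOSB by 36.7% (pooled coefficient of variation), where counting alone gives 36.4% and 24.5%. FOSB lies opposite ERCC1, so without a stated strand setting its reads could not be told from those of that gene.

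JUN (ENSG00000177606, chr1:59242517-59249720, minus strand), the AP-1 subunit that stress kinases of the JNK group phosphorylate, was the most abundant of the 10 genes in every group. In the DAXX series JUN read 403, 380.3 and 381 CPM in WT control and 178, 171 and 176 CPM in WT with etoposide. DAXX_KO libraries read 241, 232 and 239 CPM in control and 166, 172 and 159 CPM with etoposide. The 2 etoposide groups overlapped at a level below both control groups. ATRX series WT cells read 383, 351 and 328 CPM in control and 177, 201 and 186 CPM with etoposide. ATRX_KO cells read 411, 421 and 440.0 CPM in control and 347, 386 and 346 CPM with etoposide. Here the WT etoposide libraries stood alone below all others, and ATRX_KO libraries given etoposide stayed within or above the range of untreated WT libraries.

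JUN fell with etoposide in WT cells by 2.19-fold in the DAXX series (-1.13 ± 0.06, edgeR adjusted p = 2.76e-12) and 1.86-fold in the ATRX series (-0.89 ± 0.08, edgeR adjusted p = 3.98e-08). The fall was smaller in DAXX_KO (-0.51 ± 0.06, edgeR adjusted p = 4.04e-07) and in ATRX_KO (-0.25 ± 0.08, edgeR adjusted p = 0.0142). The KO minus WT difference in response was 0.62 ± 0.08 in the DAXX series (edgeR adjusted p = 4.46e-05) and 0.65 ± 0.11 in the ATRX series (edgeR adjusted p = 0.00102). The knockouts differed in direction in control cells: JUN was 1.63-fold lower in DAXX_KO (-0.71 ± 0.06, edgeR adjusted p = 4.86e-09) and 1.201-fold higher in ATRX_KO (0.26 ± 0.08, edgeR adjusted p = 0.0116; 0.0794 without ATRX series WT control library 3). With etoposide JUN was 1.88-fold higher in ATRX_KO than in WT (0.91 ± 0.08, edgeR adjusted p = 8.85e-08), while in DAXX_KO the difference was -0.09 ± 0.06 (edgeR adjusted p = 0.214). The knockout effects differed between the lines by -0.97 ± 0.09 in control (DAXX minus ATRX series, edgeR adjusted p = 5.68e-09) and -1.02 ± 0.09 with etoposide (edgeR adjusted p = 3.56e-09). The ATRX_KO fall missed the threshold with library totals alone (-0.17, edgeR adjusted p = 0.0794) and in a fit of those 2 groups only (-0.23, edgeR adjusted p = 0.0560). Less the median of its 30 tested neighbours on each side, JUN changed by -0.33 in the DAXX_KO response and by 0.14 in ATRX_KO against WT control cells.

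JUND (ENSG00000130522, chr19:18390504-18392432, minus strand), a JUN family protein that is often present in resting cells and can slow proliferation, rose with etoposide where JUN fell. JUND read 33.8, 32.6 and 36.0 CPM in DAXX series WT control and 73.3, 68.2 and 82.2 CPM in WT with etoposide. DAXX_KO libraries read 83.0, 91.1 and 85.3 CPM in control and 151, 153 and 134 CPM with etoposide. ATRX series WT cells read 40.9, 41.6 and 41.8 CPM in control and 70.8, 68.0 and 66.3 CPM with etoposide. ATRX_KO cells read 96.5, 109.6 and 125 CPM in control and 187, 171 and 151 CPM with etoposide. In both series the groups stood apart in the same order, WT control lowest and KO with etoposide highest, and untreated KO cells lay above WT cells given the drug. In control cells JUND was 2.54-fold higher in DAXX_KO (1.34 ± 0.09, edgeR adjusted p = 1.93e-10) and 2.67-fold higher in ATRX_KO (1.42 ± 0.10, edgeR adjusted p = 5.76e-09). With etoposide the KO lines were 1.95-fold (0.96 ± 0.08, edgeR adjusted p = 7.63e-09) and 2.44-fold higher (1.28 ± 0.10, edgeR adjusted p = 1.43e-08). Etoposide raised JUND by 1.14 ± 0.09 in DAXX series WT cells (edgeR adjusted p = 1e-09) and 0.76 ± 0.08 in DAXX_KO (edgeR adjusted p = 1.18e-07). The rise was 0.74 ± 0.10 in ATRX series WT cells (edgeR adjusted p = 5.17e-06) and 0.61 ± 0.09 in ATRX_KO (edgeR adjusted p = 3.78e-05). The smaller response in DAXX_KO (-0.38 ± 0.12, edgeR adjusted p = 0.0369) was lost when any 1 of 7 libraries was left out (edgeR adjusted p up to 0.120). The 30 tested genes on each side of JUND had a median response of 0.40 in DAXX series WT cells and 0.42 in ATRX series WT cells, and JUND exceeded them by 0.74 and 0.32. In DAXX_KO and ATRX_KO it exceeded them by 0.39 and 0.34, so all 4 responses shrank by over 1.5 times.

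JUNB (ENSG00000171223, chr19:12902300-12904129, plus strand), which can oppose JUN in cell cycle control, read 31.3, 28.1 and 25.9 CPM in DAXX series WT control and 36.4, 34.3 and 43.0 CPM in WT with etoposide. DAXX_KO libraries read 32.2, 29.4 and 46.0 CPM in control and 50.7, 53.7 and 50.7 CPM with etoposide. ATRX series WT cells read 44.9, 43.1 and 37.03 CPM in control and 43.6, 45.9 and 41.8 CPM with etoposide. ATRX_KO cells read 62.5, 70.8 and 76.97 CPM in control and 76.7, 78.0 and 76.8 CPM with etoposide. All 6 ATRX_KO libraries lay above all WT libraries, whereas untreated DAXX_KO libraries overlapped their WT controls, with library 3 highest. JUNB was higher in ATRX_KO in control (0.75 ± 0.09, edgeR adjusted p = 4.71e-06) and with etoposide (0.79 ± 0.09, edgeR adjusted p = 2.48e-06). It was also higher in DAXX_KO with etoposide (0.44 ± 0.13, edgeR adjusted p = 0.00706). The difference in DAXX_KO control cells (0.34 ± 0.14, edgeR adjusted p = 0.045) was 0.12 (edgeR adjusted p = 0.438) without library 3 of that group, and was 0.30 in DESeq2 (adjusted p = 0.123). Etoposide raised JUNB in DAXX series WT cells (0.42 ± 0.14, edgeR adjusted p = 0.0113; 0.0554 without WT control library 3 and 0.0805 without WT etoposide library 3) and DAXX_KO (0.53 ± 0.13, edgeR adjusted p = 0.00177). The WT control level of JUNB itself was lower in the DAXX than in the ATRX series (log2 difference -0.55 ± 0.12, edgeR adjusted p = 0.00359). Less the median of its neighbours, JUNB differed by 0.22 in DAXX_KO control cells, and its DAXX series responses were 0.198 in WT and 0.30 in KO cells. JUNB lies opposite HOOK2, and without a stated strand setting the reads of both could not be told apart.

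EGR1 (ENSG00000120738, chr5:137801168-137804992, plus strand), a target of serum response factor, had the largest difference between the knockout effects of the lines among the 9 genes tested. In the DAXX series EGR1 read 28.7, 32.8 and 33.5 CPM in WT control and 8.87, 9.23 and 12.6 CPM in WT with etoposide. DAXX_KO libraries read 21.1, 21.9 and 21.4 CPM in control and 9.99, 18.4 and 13.9 CPM with etoposide. ATRX series WT cells read 16.9, 13.6 and 16.5 CPM in control and 13.7, 12.9 and 11.7 CPM with etoposide. ATRX_KO cells read 86.5, 69.5 and 74.7 CPM in control and 72.7, 74.8 and 71.9 CPM with etoposide. Every ATRX_KO library lay above every other library. EGR1 was 4.91-fold higher in ATRX_KO than in WT control cells (2.30 ± 0.11, edgeR adjusted p = 4.45e-11) and 5.61-fold higher with etoposide (2.49 ± 0.11, edgeR adjusted p = 3.44e-11). In DAXX_KO control cells it was 1.47-fold lower (-0.56 ± 0.15, edgeR adjusted p = 0.0048; -0.37 and 0.0501 with library totals alone). The knockout effects differed by -2.85 ± 0.19 in control (DAXX minus ATRX series, edgeR adjusted p = 8.58e-12) and -2.04 ± 0.22 with etoposide (edgeR adjusted p = 5.37e-08).

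The untreated WT cells of the 2 series did not share 1 level of EGR1: it was 2.01-fold higher in the DAXX series (log2 difference 1.01 ± 0.14, edgeR adjusted p = 2.98e-05). EGR1 fell 3.06-fold with etoposide in DAXX series WT cells (-1.62 ± 0.17, edgeR adjusted p = 9.45e-08). The change in ATRX series WT cells was -0.27 ± 0.12 (edgeR adjusted p = 0.0536, and 0.0174 without WT control library 2). The 2 WT responses differed by -1.33 ± 0.22 (edgeR adjusted p = 0.000867). Between the etoposide-treated WT groups the ranges overlapped. The fall was smaller in DAXX_KO (-0.59 ± 0.17, edgeR adjusted p = 0.00544) by 1.03 ± 0.24 (edgeR adjusted p = 0.00651), and the change in ATRX_KO was -0.08 ± 0.09 (edgeR adjusted p = 0.497). The higher level of EGR1 in etoposide-treated DAXX_KO cells (0.47 ± 0.18, edgeR adjusted p = 0.0371) was 0.23 (edgeR adjusted p = 0.279) without library 2 of that group and missed the threshold in DESeq2 (0.44, adjusted p = 0.0728). Less the median of its neighbours, EGR1 differed in DAXX_KO by -0.33 in control and 0.74 with etoposide.

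EGR2 (ENSG00000122877, chr10:64571756-64578927, minus strand), a paralog of EGR1 known in myelin-forming and immune cells, rose with etoposide while EGR1 did not. Its libraries held 23, 16 and 11 counts in DAXX series WT control, 65, 60 and 54 in WT with etoposide, 9, 12 and 13 in DAXX_KO control and 29, 38 and 44 in DAXX_KO with etoposide. In the ATRX series they held 16, 12 and 14 counts in WT control, 132, 125 and 86 in WT with etoposide, 5, 2 and 4 in ATRX_KO control and 16, 27 and 35 in ATRX_KO with etoposide. Each etoposide group lay above its own control group, and untreated ATRX_KO cells were lowest. In mean CPM these were 1.85 ± 0.489 and 7.59 ± 0.566 in DAXX series WT cells, 1.14 ± 0.118 and 10.6 ± 1.92 in ATRX series WT cells, and 0.302 ± 0.131 and 1.99 ± 0.604 in ATRX_KO. The rise was 4.08-fold in DAXX series WT cells (2.03 ± 0.26, edgeR adjusted p = 1.16e-06) and 9.42-fold in ATRX series WT cells (3.24 ± 0.28, edgeR adjusted p = 2.68e-08). It was 2.89-fold in DAXX_KO (1.53 ± 0.29, edgeR adjusted p = 0.000146), and 2.68 ± 0.39 on the log2 scale in ATRX_KO (edgeR adjusted p = 2.44e-05), where the few counts of the control libraries leave its size uncertain. EGR2 was lower in ATRX_KO than in WT in control (-1.88 ± 0.43, edgeR adjusted p = 0.00195) and with etoposide (5.39-fold, -2.43 ± 0.26, edgeR adjusted p = 8.22e-07). It was also lower in DAXX_KO with etoposide (-0.86 ± 0.23, edgeR adjusted p = 0.0039). Less the median of its neighbours this last difference was -0.55. In ATRX_KO cells EGR1 was higher and EGR2 lower than in WT cells, with and without the drug. The responses of KO and WT cells differed by -0.50 ± 0.40 (edgeR adjusted p = 0.458) and -0.55 ± 0.57 (edgeR adjusted p = 0.566). A longer gene on the same strand (chr10:64574193-64679667), not in the count table, overlaps EGR2, so its reads could not be told from those of EGR2. EGR3 (ENSG00000179388, chr8:22545172-22550993, minus strand) held 0 to 6 counts in every library and was not tested.

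The plot of summed levels shows how these shifts changed the make-up of each family. FOSL1 made up 78.4% ± 1.38 of FOS family CPM in DAXX series WT control cells (mean ± SD, n = 3) and 48.8% ± 1.80 with etoposide, and 80.4% ± 1.30 and 48.7% ± 1.47 in the ATRX series. In DAXX_KO cells it made up 51.4% ± 2.98 in control and 32.01% ± 3.73 with etoposide, FOSL2 then being the larger part at 64.9% ± 3.40. The summed FOS family level fell from 368 ± 10.9 to 139 ± 4.21 CPM in DAXX series WT cells, and stood at 228 ± 3.12 CPM in DAXX_KO and 279 ± 14.5 CPM in ATRX_KO control cells. JUN made up 86.1% ± 0.106 of JUN family CPM in DAXX series WT control cells and 45.6% ± 0.510 in DAXX_KO with etoposide, where JUND reached 40.2% ± 0.975. The JUN family sum stayed at 359.8 ± 9.30 and 363 ± 17.6 CPM in DAXX_KO, and at 604 ± 36.2 and 606 ± 30.7 CPM in ATRX_KO, without and with the drug, while JUN fell and JUND rose. EGR2 made up 6.76% ± 0.0954 of EGR family CPM in ATRX series WT control cells, 44.6% ± 2.75 with etoposide, and 2.65% ± 0.811 in ATRX_KO with etoposide. These shares and sums are descriptions of levels and were not tested.

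**Figure D2:**
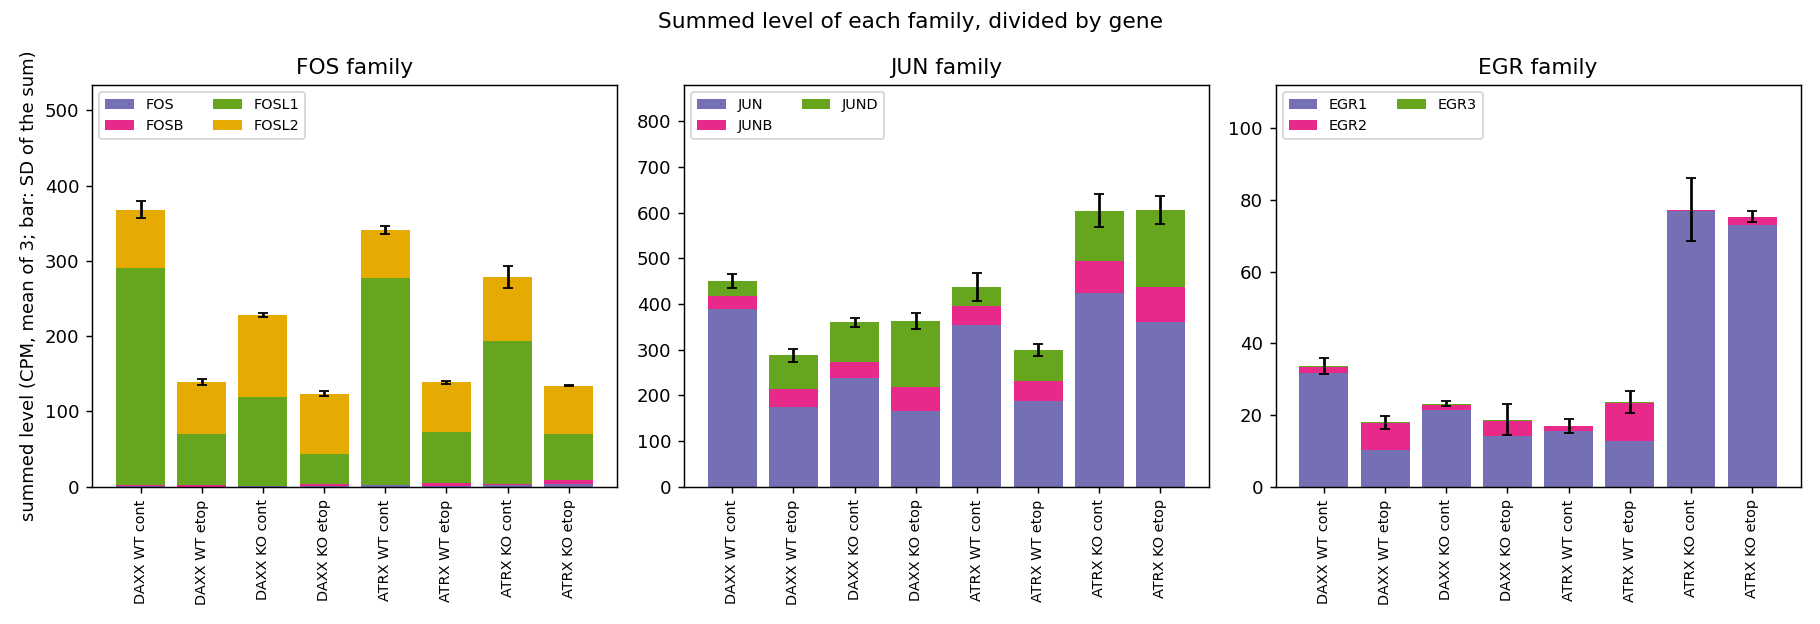
Summed CPM of the FOS, JUN and EGR families in the 8 groups, each bar divided by gene at its mean of 3 libraries, with an error bar for the SD of the sum. The FOS family sum is 368 CPM in untreated and 139 CPM in etoposide-treated WT cells of the DAXX series, and the EGR family sum is 77.3 CPM in untreated ATRX_KO cells, nearly all of it EGR1.

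In control cells, knockout of either gene went with higher FOSL2 and JUND and lower FOSL1. Against WT cells of the same series, JUN and EGR1 were lower in DAXX_KO and higher in ATRX_KO. For EGR1 the DAXX_KO control mean (21.5 CPM) lay between the WT control means of the DAXX (31.7 CPM) and ATRX series (15.7 CPM). The lower EGR1 call in DAXX_KO missed the threshold with library totals alone (edgeR adjusted p = 0.0501). In DAXX_KO, 8 of the 10 genes could be tested, of which 3 were higher (FOSL2, JUND and, with a call that ended when any 1 of 6 libraries was left out, JUNB) and 3 lower (FOSL1, JUN, EGR1), where 26.7% of all tested genes were higher and 26.6% lower. In ATRX_KO, 9 could be tested, with 5 higher (FOSL2, JUN, JUNB, JUND, EGR1) against 20.8% of all genes, and 2 lower (FOSL1, EGR2) against 21.0%. With etoposide, DAXX_KO had 4 higher (FOSL2, JUNB, JUND, EGR1; background 27.9%) and 2 lower (FOSL1, EGR2; 25.2%), and ATRX_KO had 5 higher (FOS, JUN, JUNB, JUND, EGR1; 23.0%) and 1 lower (EGR2; 22.9%). With so large a share of all genes past the threshold, these counts say little of the members as a set. Of the calls with etoposide, those of FOSL2 and EGR1 in DAXX_KO and of FOS in ATRX_KO missed the threshold in DESeq2. They also ended when any 1 of 3, 4 and 4 libraries, in that order, was left out. Control and etoposide comparisons of 1 series use different libraries of the same clones.

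**Figure D3:**
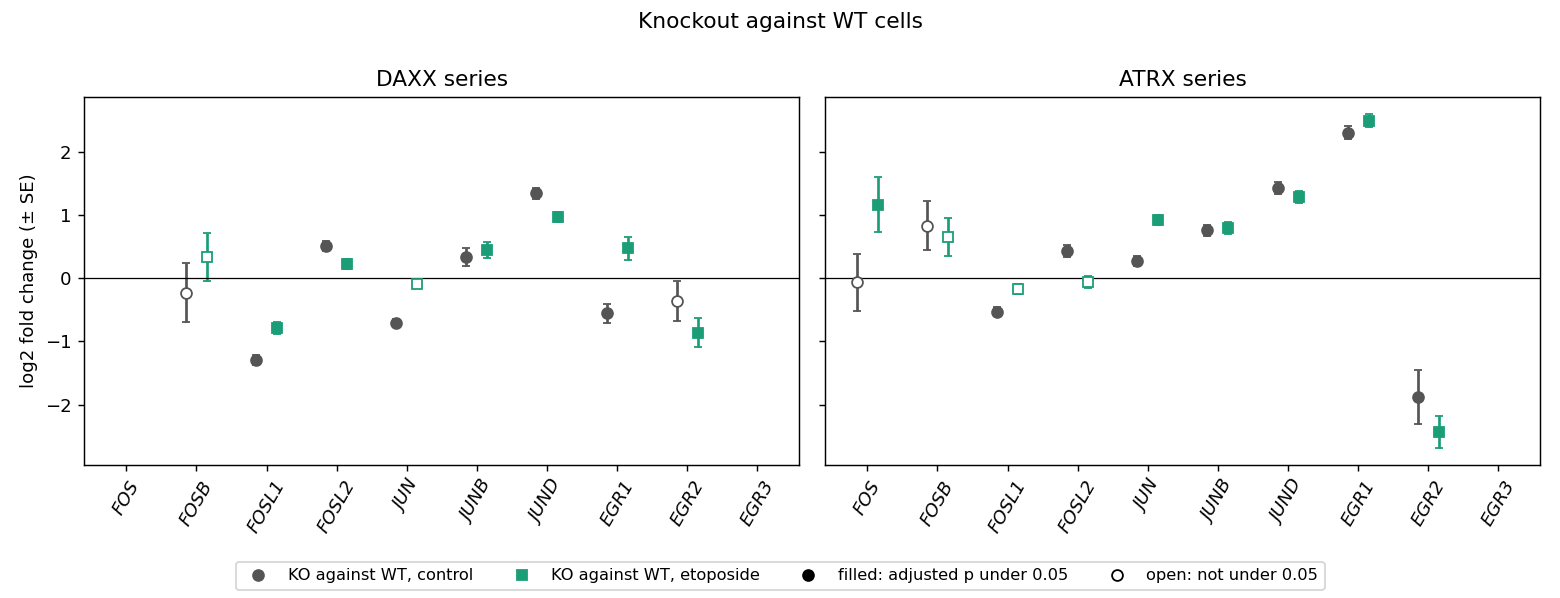
Log2 fold change of KO against WT cells (± SE) for each gene, in control (circles) and etoposide (squares), by series, filled where the edgeR adjusted p was under 0.05; genes not tested have no point. EGR1 lies at 2.30 and 2.49 in the ATRX series and at -0.56 and 0.47 in the DAXX series, and JUND is above 0.9 in all 4 comparisons.

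Etoposide lowered FOSL1 and JUN and raised JUND and EGR2 in all 4 comparisons with control cells. In WT cells of the DAXX series 3 of 8 genes rose (JUNB, JUND, EGR2; 29.6% of all tested genes) and 3 fell (FOSL1, JUN, EGR1; 30.6%), and in those of the ATRX series 3 of 9 rose (FOSB, JUND, EGR2; 31.7%) and 2 fell (FOSL1, JUN; 29.8%). In DAXX_KO all 8 genes tested passed, 4 higher (FOSB, JUNB, JUND, EGR2; 26.8%) and 4 lower (FOSL1, FOSL2, JUN, EGR1; 27.8%). In ATRX_KO 3 of 9 rose (FOSB, JUND, EGR2; 24.3%) and 3 fell (FOSL1, FOSL2, JUN; 25.2%). The WT and KO responses of 1 series share no library, but the response and the knockout effect share their control libraries.

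**Figure D4:**
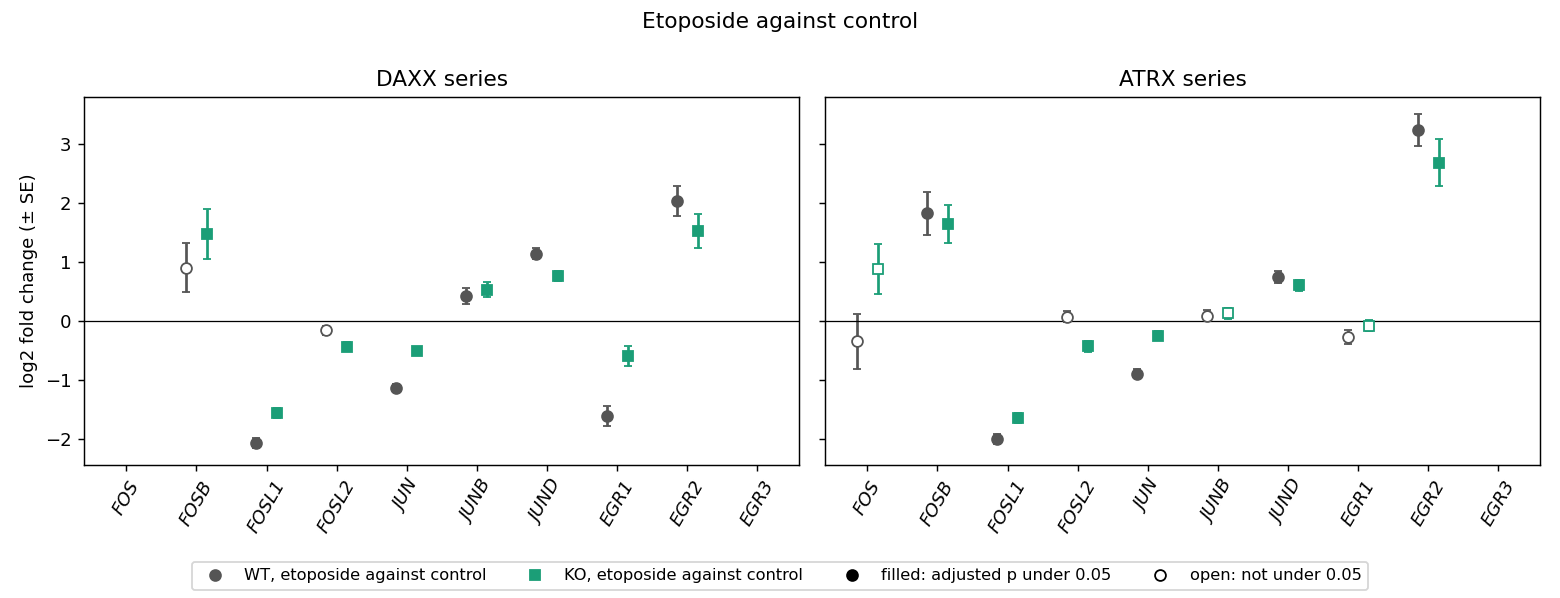
Log2 fold change of etoposide against control cells (± SE) for each gene in WT (circles) and KO cells (squares), by series, filled where the edgeR adjusted p was under 0.05. FOSL1 lies between -2.07 and -1.56 in all 4 comparisons and EGR2 between 1.53 and 3.24, while JUN is nearer 0 in the KO cells of both series.

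Responses that differed between KO and WT cells were those of FOSL1, JUN and EGR1 (3 of 8 higher in DAXX_KO, 8.38% of all genes) and JUND (1 lower, 5.79%) in the DAXX series. In the ATRX series they were those of FOSL1 and JUN (2 of 9 higher, 8.36%) and FOSL2 (1 lower, 7.64%). A higher value here means a smaller fall for FOSL1, JUN and EGR1, and a lower one a smaller rise for JUND and, for FOSL2, a fall in ATRX_KO where the change in WT cells did not pass the threshold. Between the series, the knockout effect differed for 4 of 9 genes in control (FOSL1, JUN, EGR1, EGR2; 34.1% of all genes) and for 5 with etoposide (FOSL1, JUN, JUND, EGR1, EGR2; 34.5%). The WT response to etoposide differed for 1 gene, EGR1 (3.15%), and the WT control level for 3, FOSL2, JUNB and EGR1 (13.2%). For EGR2, which did not pass the threshold in DAXX_KO control cells (-0.36 ± 0.32, edgeR adjusted p = 0.361), the difference in knockout effect was 1.51 ± 0.51 in control (edgeR adjusted p = 0.0237; DESeq2 0.0612, and lost without any 1 of 5 libraries) and 1.55 ± 0.33 with etoposide (edgeR adjusted p = 0.000615). FOSL1 was reduced more in DAXX_KO, with a difference in knockout effect of -0.76 ± 0.11 in control (edgeR adjusted p = 5.35e-06) and -0.63 ± 0.12 with etoposide (edgeR adjusted p = 0.000211). The difference for JUND with etoposide was -0.34 ± 0.13 (edgeR adjusted p = 0.0377, and up to 0.122 without 1 of 7 libraries), and that for the FOSL2 WT level 0.27 ± 0.09 (edgeR adjusted p = 0.0388, and up to 0.217 without 1 of 5 libraries).

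The genes whose log2 CPM followed JUN most closely over the 24 libraries were RAI14 (Pearson r = 0.98), TMEM158 (0.97) and G0S2 (0.96), out of 13665 genes compared. Those most like EGR1 were COPB2 (0.94), DUSP6 (0.93) and TRIM33 (0.93), and those most like FOS were SP2 (0.83), INTS14 (0.82) and MANF (0.81). The libraries fall into 8 groups and share line, drug and series, so these are descriptions of the pattern over groups. Among the members, JUN was most like EGR1 (0.79) and FOSL1 (0.75), and ran opposite to EGR2 (-0.81).

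Other genes of the pathway were read from lists named in the methods. Among dimer partners of JUN and FOS proteins, ATF3, a stress-induced repressor and AP-1 partner, read 12.6 ± 0.903 CPM in DAXX series WT control cells and 186 ± 5.27 CPM with etoposide. Its log2 responses were 3.90 ± 0.09 there and 4.21 ± 0.11 in the ATRX series (edgeR adjusted p = 5.34e-17 and 2.02e-14). In those 2 responses 5 of the 10 genes tested were higher and 1 lower (all genes 29.6% and 30.6%), and 6 of the 10 genes tested were higher and 2 lower (all genes 31.7% and 29.8%), with list medians of 0.23 and 0.57 against 0.02 and 0.07 over all genes. The largest fall among them was that of BATF3, a partner of JUN in dendritic cells (-0.74 ± 0.12 and -1.11 ± 0.13). In DAXX_KO control cells 0 of the 10 genes tested were higher and 7 lower (all genes 26.7% and 26.6%), MAFF, a small MAF protein, being lowest (-1.41 ± 0.13, edgeR adjusted p = 2.71e-08; list median -0.48, all genes 0.02). In ATRX_KO control cells 2 of the 10 genes tested were higher and 3 lower (all genes 20.8% and 21.0%). BATF2 was highest there (1.04 ± 0.31) and BATF3 lowest (-0.95 ± 0.13). The DAXX series response difference (KO minus WT) was higher for 2 of the 10 genes and lower for 1 (all genes 8.38% and 5.79%). MAFF had the highest difference at 1.32 and ATF3 the lowest at -0.95.

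Of the kinases and factors that act upstream, in WT cells given etoposide 3 of the 22 genes tested were higher and 14 lower (all genes 29.6% and 30.6%) in the DAXX series, and 3 of the 22 genes tested were higher and 15 lower (all genes 31.7% and 29.8%) in the ATRX series. RPS6KA1, a kinase downstream of ERK, rose most (1.35 ± 0.14 and 0.71 ± 0.12) and ELK3, a ternary complex factor that sits with serum response factor, fell most (-1.61 ± 0.08 and -1.64 ± 0.11). The list medians were -0.44 and -0.51, against 0.02 and 0.07 over all genes. In untreated KO cells 8 of the 22 genes tested were higher and 3 lower (all genes 26.7% and 26.6%) in DAXX_KO, and 6 of the 22 genes tested were higher and 7 lower (all genes 20.8% and 21.0%) in ATRX_KO. MRTFA, the actin-regulated partner of serum response factor, was lowest in both (-1.17 ± 0.20 and -1.04 ± 0.19), with RPS6KA3 (0.89 ± 0.08) and SRF itself (0.72 ± 0.25) highest.

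Among inhibitors that MAP kinase signalling induces against itself, 8 of 16 had a lower knockout effect in control cells of the DAXX than of the ATRX series and 1 a higher one, where 34.1% of all genes differed in either direction. DUSP6, the phosphatase of ERK, read 36.7 ± 3.35 and 29.4 ± 2.08 CPM in WT control cells of the DAXX and ATRX series, 19.4 ± 1.16 CPM in DAXX_KO and 159 ± 14.2 CPM in ATRX_KO control cells. Its knockout effect differed by -3.35 ± 0.13 between the series (edgeR adjusted p = 4.44e-16). DUSP4 was the 1 gene with a higher effect in the DAXX series, by 2.43. In untreated DAXX_KO cells 2 of the 15 genes tested were higher and 10 lower (all genes 26.7% and 26.6%; list median -0.66 against 0.02), with DUSP8, a phosphatase of JNK and p38, highest (2.04 ± 0.25) and SPRY4, an inhibitor of receptor signalling, lowest (-2.48 ± 0.22). In ATRX_KO 6 of the 16 genes tested were higher and 6 lower (all genes 20.8% and 21.0%; list median 0.07 against 0.02), with DUSP16 highest (2.46 ± 0.43), while SPRY1, the lowest, was at 0.589 to 1.42 CPM in WT and at most 0.235 CPM in ATRX_KO cells. With etoposide 4 of the 15 genes tested were higher and 10 lower (all genes 29.6% and 30.6%) in DAXX series WT cells, and 3 of the 16 genes tested were higher and 8 lower (all genes 31.7% and 29.8%) in those of the ATRX series. DUSP8 rose most (2.14 ± 0.25 and 2.85 ± 0.27) and SPRY4 fell most (-1.99 ± 0.21 and -1.97 ± 0.18). The EGR corepressor NAB1 fell in WT cells with etoposide (-1.10 ± 0.15 and -1.47 ± 0.16) and was higher in ATRX_KO, by 0.93 ± 0.14 in control and 1.80 ± 0.15 with etoposide (edgeR adjusted p = 3.55e-05 and 7.59e-08). NAB2, the other corepressor, was the highest of its list in etoposide-treated DAXX_KO cells (0.67 ± 0.14), and EGR4 did not pass the filter.

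Other immediate early genes rose and fell side by side with etoposide. In DAXX series WT cells 13 of the 25 genes tested were higher and 10 lower (all genes 29.6% and 30.6%), and in ATRX series WT cells 15 of the 25 genes tested were higher and 9 lower (all genes 31.7% and 29.8%), with list medians of 0.21 and 0.94 against 0.02 and 0.07 over all genes. BTG2, an antiproliferative target of p53, rose most (6.38 ± 0.31 and 6.87 ± 0.21) and MYC fell most (-2.58 ± 0.33 and -2.25 ± 0.33). The BTG2 rise was smaller in ATRX_KO than in WT cells (KO minus WT -1.62 ± 0.43, edgeR adjusted p = 0.018), and the same difference was -1.94 ± 0.73 in DAXX_KO (edgeR adjusted p = 0.0849). In untreated cells 2 of the 25 genes tested were higher and 9 lower (all genes 26.7% and 26.6%) in DAXX_KO, with RHOB highest (0.88 ± 0.12) and KLF2 lowest (-1.41 ± 0.21), and 5 of the 25 genes tested were higher and 6 lower (all genes 20.8% and 21.0%) in ATRX_KO, with IER3 highest (1.78 ± 0.12) and CCN2 lowest (-2.01 ± 0.15).

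Of the genes known as targets of AP-1, in untreated DAXX_KO cells 2 of the 13 genes tested were higher and 10 lower (all genes 26.7% and 26.6%; list median -1.08 against 0.02), and in ATRX_KO 10 of the 14 genes tested were higher and 3 lower (all genes 20.8% and 21.0%; list median 0.95 against 0.02). The urokinase gene PLAU was lowest in both (-4.25 ± 0.17 and -4.32 ± 0.15), while SPP1, the osteopontin gene, was highest in DAXX_KO (2.79 ± 0.12) and the chemokine gene CXCL8 highest in ATRX_KO (3.91 ± 0.59), where its 3 libraries ranged from 6.49 to 51.0 CPM. MMP1, an interstitial collagenase, read 0.991 ± 0.441 and 1.38 ± 0.105 CPM in WT control cells of the DAXX and ATRX series, 0 in all 3 DAXX_KO libraries and 5.99 ± 0.239 CPM in ATRX_KO. Tested as a difference between the series, 9 of 14 genes of this list had a lower knockout effect in the DAXX series and none a higher one, where 34.1% of all genes differed in either direction (list median -1.46, all genes -0.004). With etoposide 4 of the 13 genes tested were higher and 5 lower (all genes 29.6% and 30.6%) in DAXX series WT cells and 4 of the 14 genes tested were higher and 5 lower (all genes 31.7% and 29.8%) in ATRX series WT cells. SPP1 rose most (1.82 ± 0.12 and 2.47 ± 0.15) and PLAU fell most (-2.34 ± 0.15 and -2.12 ± 0.14). The DAXX series response difference (KO minus WT) was higher for 4 of the 13 genes and lower for 3 (all genes 8.38% and 5.79%). CXCL8 had the highest difference at 3.70 and HMOX1 the lowest at -0.93. The lists were chosen with earlier results of these data known, and their counts and medians are descriptions.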

How the data were processed

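The 24 libraries were made with a 3′ end kit (QuantSeq) from U87-T cells, and the study aligned reads with STAR to hg19 and counted them with RSEM over Ensembl GRCh37 genes. The deposited values are estimated counts per gene given as whole numbers, unnormalized; the RSEM version differs between the sources, which name DESeq2 as the authors' test. All 24 columns were matched to samples by the description field, which holds the column name, read together with the title. Gene symbols and positions came from a GENCODE annotation lifted to GRCh37.

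Genes were kept with edgeR's filterByExpr (minimum count 10, minimum total 15), which left 15247 genes in the DAXX series, 16371 in the ATRX series and 16674 over both. Library sizes were scaled by TMM, and edgeR 4.0.16 quasi-likelihood tests (R 4.3.3) were fitted to the 12 libraries of a series, or to all 24 for differences between series, with Benjamini-Hochberg adjustment over all genes tested and a threshold of 0.05. The SE of a log2 fold change was its size divided by the square root of F. Only the KO against WT comparison in control cells of each series was first tested on simulated counts, with a fixed spread. Responses, their differences and contrasts between series were not simulated, and no change was placed in low-count genes. Alternatives were DESeq2 1.42.0, other scalings and filters, other sets of libraries, the replicate number as a block, subtraction of the median of the 30 tested genes on each side, and leaving out each library.

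All 10 members are named. From lists of AP-1 dimer partners, EGR family and corepressors, upstream kinases and factors, feedback inhibitors, other immediate early genes and AP-1 target genes, the genes with the largest increase and decrease past the threshold in a comparison are named, and for likeness the 3 genes with the highest Pearson correlation of log2 CPM (prior count 2, mean of at least 1 CPM). Members and lists were chosen with earlier results of these data known. Levels of 3 counts or fewer were treated as a floor, which covers counting error only. Replicates of 1 group differed by more than counting noise (chi-square per degree of freedom 2.16 to 17.1 over 24 pairs).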

Additional observations from a re-analysis of the deposited data

Results flagged for a closer look

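Effects under the same contrast that differed between genotypes or series by a test of the difference are given as log2 differences with the edgeR adjusted p. Between KO and WT cells of the DAXX series, the etoposide response differed by 0.51 for FOSL1 (0.00707), 0.62 for JUN (4.46e-05), -0.38 for JUND (0.0369) and 1.03 for EGR1 (0.00651). In the ATRX series it differed by 0.35 for FOSL1 (0.0421), -0.50 for FOSL2 (0.0185) and 0.65 for JUN (0.00102). JUN was the gene whose fall was smaller in both KO lines with a call that no left-out library ended. The JUN levels reached with etoposide were unlike, with means of 165 CPM in DAXX_KO against 175 CPM in its WT cells. In the ATRX series they were 360 CPM in ATRX_KO against 188 CPM in WT cells. These response differences share their control libraries with the knockout effects in control cells.

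Between the DAXX and ATRX series the knockout effect in control cells differed by -0.76 for FOSL1 (5.35e-06), -0.97 for JUN (5.68e-09), -2.85 for EGR1 (8.58e-12) and 1.51 for EGR2 (0.0237). With etoposide it differed by -0.63 for FOSL1 (0.000211), -1.02 for JUN (3.56e-09), -0.34 for JUND (0.0377), -2.04 for EGR1 (5.37e-08) and 1.55 for EGR2 (0.000615). The WT response of EGR1 differed by -1.33 between the series (0.000867), in cells whose untreated level of EGR1 also differed. The series are 2 sets of libraries and the KO lines 2 clones, so line, clone and series cannot be told apart in these differences. Single outlying libraries were looked for only by leaving out each library in turn.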

How the results depend on the processing

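Of 2720 tested values of single members under the alternatives, 2591 kept their direction and their side of the threshold, 79 lost a call, 30 gained one and 20 turned sign. With at least 10 counts in every library, the count of members called was 3 in the ATRX series WT response and 3 in the ATRX_KO response, since FOSB and EGR2 could no longer be tested and, in ATRX_KO, JUN missed the threshold (-0.19, edgeR adjusted p = 0.0510). Subtracting the median of the 30 tested neighbours on each side, a value with no test, moved 21 of 85 values beyond their spread or across 0. It turned 5 that had not passed the threshold: to 0.05 for JUN in etoposide-treated DAXX_KO, 0.01 for FOSL2 in etoposide-treated ATRX_KO, -0.14 for FOSL2 and -0.20 for JUNB in the ATRX series WT response, and -0.0018 for JUNB in the ATRX_KO response. Of 57 called values, 14 moved by over 1.5 times and none turned. With library totals in place of TMM, the log2 value turned to -0.00189 for the JUNB response difference in the DAXX series, to 0.0309 for FOSL2 in etoposide-treated ATRX_KO cells and to 0.0498 for the JUND knockout effect in control between series; none was past the threshold. Leaving out 1 library gave 1 to 3 members for the ATRX series response difference (1 without WT control library 3 or WT etoposide library 1) and 1 to 2 for the WT response between series. It gave signs of both kinds for log2 values near 0: -0.60 to 0.13 for FOSB in DAXX_KO control, -0.0169 to 0.32 for the JUNB response difference in the DAXX series, -0.37 to 0.29 for FOS in ATRX_KO control, -0.77 to 0.00602 for FOS and -0.0045 to 0.12 for FOSL2 in the ATRX series WT response, -0.16 to 0.0029 for EGR1 in the ATRX_KO response, -0.73 to 0.19 for FOSB and -0.0392 to 0.12 for JUNB in the ATRX series response difference, -0.0515 to 0.16 for FOSL2 and -0.18 to 0.0251 for JUND in the knockout effect in control between series, and -0.0718 to 0.79 for FOSB in the WT control level. The cause was not tested.

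Same-numbered libraries of a series showed no shared deviation from their group means (correlations of -0.209 to 0.0511 over 36 pairs). Pairs with different numbers were not compared, so these values cannot show whether the numbers pair the samples. With the replicate block the count of members called was 5 and 6 for DAXX_KO against WT in control and etoposide, 7 and 5 for ATRX_KO, 6 in both WT responses, 8 and 6 in the KO responses, 3 and 2 for the response differences, and 4, 4, 1 and 2 between series. Library totals moved the median log2 fold change of all genes from 0.02 to 0.20 in DAXX_KO against WT control cells, and the share of higher calls from 50.1% to 66.2% there, 59.1% to 36.8% for the DAXX series response difference, 50.1% to 60.2% for etoposide-treated ATRX_KO, 49.7% to 62.7% for the knockout effect in control between series, 45.1% to 31.3% for the WT response (55.3% in DESeq2) and 45.4% to 29.3% for the WT control level. Over all genes, 526 differed in WT response between series, against 279 without DAXX series WT control library 3, and 2206 in WT control level, against 1106 without it. Without the filter on low counts FOS entered the DAXX series fit, but its WT etoposide libraries held 3, 3 and 1 counts, at or under the floor, so no fold is given. Depth limits FOS, FOSB, EGR2 and EGR3, whose groups include libraries of 6 counts or fewer.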
